A study of Homo sapiens with 8 samples.

Results

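EBF1, PAX5, SPIB, BCL6 and BACH2 encode transcription factors that B cells use and plasma cells shut off. They were followed here in L363, an established human plasma cell line from multiple myeloma, after treatment with MLN120b. Features, the single spots of a microarray, were taken where the platform annotation assigns them to one of these genes and where at least 5 of 8 arrays held a value. That gave 23 features of 15246 in the table: 6 of EBF1, 3 of PAX5, 2 of SPIB, 2 of BCL6 and 10 of BACH2. Features assigned to one gene are further readings of that gene and not replicates of a condition. No feature sequences were at hand, so whether they read the same transcript is not known.

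Each of the 8 arrays set Cy5-labelled cDNA from L363 cells given 12.5 µM MLN120b against Cy3-labelled cDNA from L363 cells given the solvent DMSO. MLN120b inhibits IKKβ, which tags the IκB proteins for breakdown and so lets NF-κB enter the nucleus. Treatment at 37 °C lasted 8 h on 2 arrays (samples 1 and 2), 12 h on 3 (samples 1, 2 and 3) and 24 h on 3 (samples 1, 2 and 3). All RNA came from 1 cell line grown in culture, and the labels do not say whether the samples of 1 time were grown apart. A p-value here therefore covers just the scatter of these samples, which may be technical. Values are log2 ratios centred on each array's median, most likely MLN120b over DMSO, since the labels give the dyes but not the direction of the ratio. With the sign turned, each direction below would reverse and the sizes would stay.

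EBF1 and PAX5 commit precursors to the B cell lineage, EBF1 by opening B cell genes and PAX5 by activating them and repressing those of other lineages. SPIB, an ETS factor close to PU.1, supports B cell receptor signalling. BCL6 is the repressor of the germinal centre, and BACH2 holds back PRDM1, the gene of the plasma cell regulator Blimp-1. As a B cell turns into a plasma cell, Blimp-1 silences several of these genes, and plasma cells and most myelomas keep them low. NF-κB acts at the same switch, because it drives IRF4, a factor that favours the plasma cell state.

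RefSeq promoters on GRCh38.p14, 250 bases before to 50 bases after each start, were searched on both strands for the NF-κB consensus. Of 35116 promoters 11.3% held a match. Of 6 promoters of the 5 genes, 1 did, that of SPIB on chromosome 19. Promoters of NFKBIA, TNFAIP3 and NFKB2, the genes used below to read the inhibitor's mark, held matches too. The SPIB and NFKBIA stretches are shown 5′ to 3′, with the match in capitals, because SPIB alone of the 5 genes held a match and NFKBIA is a known NF-κB target. The SPIB stretch is chr19:50418711-50418780 on the plus strand and the NFKBIA stretch is chr14:35404791-35404860 on the minus strand.
SPIB: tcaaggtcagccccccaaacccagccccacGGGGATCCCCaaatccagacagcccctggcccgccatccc
NFKBIA: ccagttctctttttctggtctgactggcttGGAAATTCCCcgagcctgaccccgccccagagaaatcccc
A match describes these letters and does not show that a factor binds there. In the promoter windows of EBF1, PAX5, BCL6 and BACH2 these letters were not found.

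Many spots of these genes carried no value. The annotation assigned 51 features to the 5 genes, of which 50 had a value on some array and 23 on 5 or more, or 45.1%, against 71.2% of all features. By gene this share was 75.0% for EBF1, 42.9% for PAX5, 40.0% for SPIB, 33.3% for BCL6 and 40.0% for BACH2, so EBF1 did not fall short by it. Taken over all arrays, 53.2% of the readings that the 51 features could give were present, against 70.3% for all features. The share was 59.4% for EBF1, 46.4% for PAX5, 50.0% for SPIB, 50.0% for BCL6 and 54.5% for BACH2. Regulators and surface proteins of plasma cells such as PRDM1, XBP1, IRF4 and SDC1 (27 features) stood at 86.6%. Genes that PAX5, EBF1 and SPIB activate in B cells (125 features) stood at 60.9%. Why a reading is missing is not given in the sources used here, and ratios hold no expression level, so whether the 5 genes were silent in L363 was not tested. The same limit holds for the cell type: plasma cell markers (33 features) had 84.5% of readings and B cell markers (39 features) 61.9%, against 56.5% for T cell, 64.8% for myeloid and 60.7% for stroma markers. In bulk RNA, fewer cells that express a gene and less RNA per cell cannot be told apart. For the 51 features the share present differed by array, from 80.4% on sample 2 at 24 h to 25.5% on sample 1 at 24 h. For all features it also differed, at 85.2% and 41.6% on these arrays.

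**Figure D1:**
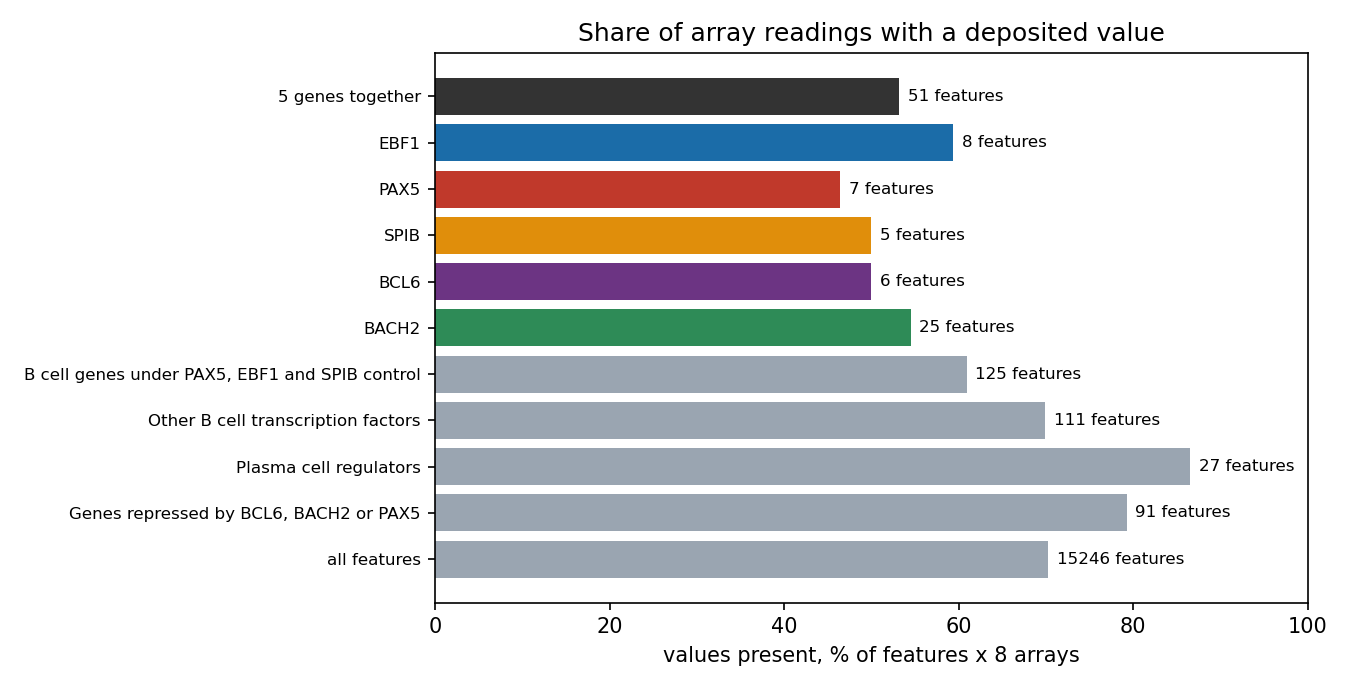
Share of readings with a deposited value, in percent of features times 8 arrays, for the 5 genes together, each gene, lists of related genes and all features. The 5 genes together stand at 53.2%, plasma cell regulators and surface proteins at 86.6% and all features at 70.3%.

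Values on either side of the threshold of 5 arrays overlapped. The 11 features with exactly 5 values ran from -1.09 to 3.58 with a median of 0.072, and the 12 features with 4 values from -1.04 to 2.39 with a median of 0.040. In all, 27 features with 1 to 4 values gave 80 readings, 43 above 0 and 37 below, and 1 BACH2 feature had none. They enter the averages per gene given below and are otherwise not analysed further.

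The arrays themselves differed in spread. Their SD over features ran from 0.21 to 1.42. Database identifiers in the labels fall into 3 groups of close numbers, called database runs here. This grouping was read from the numbers, and the labels name no batch. The first sample at 12 h and at 24 h and the second at 8 h make up run 2. The second sample at 12 h and at 24 h and the first at 8 h make up run 3, and the remaining 2 arrays, sample 3 of either time, make up run 1. The 3 widest arrays, with SDs of 1.00 to 1.42, are those of run 2. NF-κB feedback genes, which IKKβ inhibition lowers, served as a check of direction. All 4 tested features of NFKBIA, which encodes the NF-κB inhibitor IκBα, had means over the 3 times between -1.04 and -0.80. All 6 of TNFAIP3, which encodes the brake A20, lay between -1.23 and -0.52, and all 5 of NFKB2, the p52 precursor gene, between -2.80 and -0.25. None of these 15 passed adjustment over all features.

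No feature of the 5 B cell factor genes passed at any time or over the 3 times. Of the 23 features 20 had a value at each time and were tested with limma. Over the 3 times 13 of these had a mean above 0 and 7 below, where 48.6% of all 10817 tested features lay above 0. Their median was 0.082, with single features from -0.37 to 1.04, and the median of all features was -0.0086. Without sample 1 at 24 h the median of the 20 was -0.0086. Past an adjusted p of 0.05 stood 0 of 20, the smallest adjusted p being 0.96 (limma), and the share over all features was 0.0185%. At an unadjusted p under 0.05 stood 1 of 20, a SPIB feature, where the share over all features was 2.88%, made up of 1.29% above 0 and 1.59% below 0.

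EBF1, the pioneer factor of the B lineage, was read by 6 features, and they took both signs. Feature 24647_1 was at 0.99, 0.084 and -1.07 on samples 1, 2 and 3 at 12 h and at 1.57, 0.37 and -0.23 on samples 1, 2 and 3 at 24 h, with no value at 8 h. It was high on both arrays of run 2, low on both of run 1, and the times overlapped. Feature 30718_1 was at 0.56 on sample 1 at 8 h, at 0.48 and 0.90 on samples 2 and 3 at 12 h, and at 3.18 and -0.0070 on samples 1 and 2 at 24 h. It lay above 0 on 4 of 5 arrays, and its largest reading came from run 2. Its mean over the 3 times was 0.95 ± 0.49 (SE, n = 5; limma adjusted p = 0.96). It was 0.41 without sample 1 at 24 h, 1.48 without sample 2 at 24 h, 0.44 with array weights and 1.49 under quantile normalization.

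Feature 32096_1 of EBF1 was at -0.076 and 1.54 on samples 1 and 2 at 8 h, -0.099 to 0.032 at 12 h and 0.12 at 24 h, and only the array of run 2 stood clear of 0. Its mean was 0.27 ± 0.29 (SE, n = 5), and 0.0028 without that array. Feature 30286_1, with no value in run 2, lay between -0.62 and 0.080 with a mean of -0.15 ± 0.21 (SE, n = 5). Features 26725_1 and 27704_1, which lack values at 8 h and at 24 h, ran from -0.67 to 0.18 and from -0.42 to 0.64. In run 2 all 7 EBF1 readings lay above 0. In run 1, 3 of 9 did, and in run 3, 9 of 15. For all features with 5 to 7 values the shares above 0 were 55.5% in run 2, 41.9% in run 1 and 52.8% in run 3.

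PAX5, the guardian of B cell identity, was read by 3 features. The fullest, 31153_1, was at -0.26 and -1.90 on samples 1 and 2 at 8 h. It was at 0.65, 0.40 and -1.82 on samples 1, 2 and 3 at 12 h, and at -0.031 and 0.47 on samples 1 and 2 at 24 h. Its 2 values at 24 h lay above both values at 8 h, but the 12 h values overlapped those of both other times. The mean over the 3 times was -0.37 ± 0.34 (SE, n = 7), and the 24 h minus 8 h difference was 1.30 (limma adjusted p = 1.00). The mean was -0.10 without sample 2 at 8 h, -0.11 without sample 3 at 12 h, -0.65 without sample 1 at 8 h and -0.895 with the replicate or the run as a block.

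Of features with 2 values at each of these times, 2 of 8 of the 5 genes and 10.5% over the whole table had the 24 h values wholly above those at 8 h. They lay wholly below for 1 of the 8, BACH2 34658_1, and for 11.7% over the table. Feature 35316_1 of PAX5 stayed within -0.21 to 0.35 on 6 arrays, with a mean of 0.12 ± 0.16 (SE). Feature 30371_1 reached 0.79 on sample 2 at 8 h, stood at -1.09 on sample 3 at 12 h, and stayed within -0.16 to 0.16 on the other 3 arrays. Its mean was -0.034 ± 0.27 (SE, n = 5). The 3 features had the same sign on 5 of 16 shared readings, so readings of PAX5 disagreed more often than they agreed. Counted alike over pairs of features, signs agreed on 29 of 54 for EBF1, 2 of 5 for SPIB, 4 of 5 for BCL6 and 126 of 228 for BACH2.

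SPIB held the one feature with an unadjusted p under 0.05 over the 3 times. Feature 30237_1 was at 3.58 on sample 2 at 8 h, at -0.019 and -0.64 on samples 2 and 3 at 12 h, and at -0.062 and -0.23 on samples 2 and 3 at 24 h. The 8 h array stood alone, and every later value lay below 0. Its mean over the 3 times was 1.04 ± 0.20 (SE, n = 5; limma adjusted p = 0.96). A single array supplies the 8 h level, so its SE borrows the spread of the other times. Without that array the feature has no 8 h value and could not be fitted. With 1 mean over all 5 arrays in place of a mean per time, the value was 0.53 ± 0.59 (SE; limma adjusted p = 0.82), and under quantile normalization it was 0.28.

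At 8 h alone this SPIB feature gave a p of 0.00027 and an adjusted p of 0.29. The 12 h minus 8 h difference was -3.91 (adjusted p = 0.52) and the 24 h minus 8 h difference -3.73 (adjusted p = 0.65), all from limma. Without sample 1 at 8 h, 1 of the 13 features of the 5 genes that could still be fitted passed at 8 h and in both differences from 8 h. That setting leaves 8 h to the widest array. Under it 209 of 9357 features of the whole table passed at 8 h (2.23%), 119 in 12 h minus 8 h (1.27%) and 104 in 24 h minus 8 h (1.11%), against 7, 5 and 5 of 10817 with all arrays.

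The other SPIB feature, 19263_1, did not follow. It was at 0.052 and -0.55 on samples 1 and 2 at 8 h, at 1.53, 0.37 and -0.35 on samples 1, 2 and 3 at 12 h, and at 0.50 and -0.55 on samples 2 and 3 at 24 h. On sample 2 at 8 h, where 30237_1 was highest, it lay below 0. Its mean was 0.079 ± 0.26 (SE, n = 7). The 2 features shared a sign on 2 of 5 arrays.

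BCL6, the germinal centre repressor, was read by 2 features. Feature 26535_1 was at -0.25 and 0.66 on samples 1 and 2 at 8 h, at -1.22 and -0.024 on samples 1 and 2 at 12 h, and at 0.60, -0.11 and 0.20 on samples 1, 2 and 3 at 24 h. Its extremes in both directions came from run 2. Feature 32487_1 was at -0.093 on sample 1 at 8 h, at -0.093 and -1.05 on samples 2 and 3 at 12 h, and at 0.79, 0.055 and 0.16 on samples 1, 2 and 3 at 24 h. Its 24 h values all lay above its 2 values at 12 h, as for 2 of 18 features of the 5 genes and 6.15% of features over the table with 2 values at each of these times. The opposite order held for 1 of the 18 and for 7.78% over the table.

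The means of the BCL6 features over the 3 times were -0.062 ± 0.21 (SE, n = 7) and -0.11 ± 0.22 (SE, n = 6). For the 24 h minus 12 h difference they stood at 0.85 and 0.91, with limma adjusted p = 1.00 for both. These differences rest on 12 h arrays that stand low, sample 1 for the first feature and sample 3 for the second. Without sample 1 at 12 h the mean of 26535_1 was 0.14, and without sample 3 at 12 h that of 32487_1 was 0.050, each with its sign turned. In run 3, which holds the narrowest arrays, 5 of 6 BCL6 readings lay below 0, the lowest at -0.25. In run 2, 3 of 4 BCL6 readings lay above 0, and in run 1, 2 of 3. For all features with 5 to 7 values the shares above 0 were 52.8% in run 3, 55.5% in run 2 and 41.9% in run 1.

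BACH2, which delays plasma cell differentiation, was read by 10 features. Feature 30817_1 had values on all arrays: 0.066 and 0.27 on samples 1 and 2 at 8 h, 0.42, 0.29 and -1.50 on samples 1, 2 and 3 at 12 h, and 0.70, 0.74 and -0.64 on samples 1, 2 and 3 at 24 h. It was above 0 on all 6 arrays of runs 2 and 3 and below 0 on both of run 1. Feature 31982_1, also complete, was at 0.11 and -0.71 on samples 1 and 2 at 8 h, at -0.28, -0.031 and 0.25 on samples 1, 2 and 3 at 12 h, and at -1.04, 0.013 and 0.027 on samples 1, 2 and 3 at 24 h. It was low on the 3 arrays of run 2, so the 2 complete features of the same gene shared a sign on 2 of 8 arrays. Their means were 0.058 ± 0.26 and -0.22 ± 0.18 (SE, n = 8), and neither passed.

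Feature 30590_1 of BACH2 had the smallest p at 12 h among the tested features of the 5 genes. It was at 0.079 and -0.57 on samples 1 and 2 at 8 h, at 1.62, 0.087 and 0.61 on samples 1, 2 and 3 at 12 h, and at 0.10 and 0.29 on samples 2 and 3 at 24 h. All values at 12 h lay above both at 8 h, as for 3 of 13 features of the 5 genes with 2 values at each time and 9.56% of such features over the table. The opposite order held for 0 of the 13 and for 7.54% over the table. At 12 h its mean was 0.77 (limma adjusted p = 0.97). Its unadjusted p was under 0.05, as for 2.8% of all features at 12 h, 1.27% with a mean above 0.

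Of the remaining BACH2 features 30617_1 ran from -0.63 to 0.77 and 34658_1 from -0.51 to 0.54, each on 7 arrays. Feature 30686_1 was at -1.78 on sample 2 at 8 h and between -0.15 and 0.28 on the other 5 arrays. Features 32541_1 and 34062_1 stood at 1.58 and 1.32 on their highest array, sample 1 at 24 h, and at -0.64 and -0.66 on their lowest, sample 3 at 12 h, with the other arrays between -0.055 and 0.14. Features 33617_1 and 34139_1 ran from -0.31 to 0.92 and from -0.96 to 0.68. Over the 3 times 8 of 10 BACH2 features had a mean above 0, the 10 ranging from -0.24 to 0.24.

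BACH2 readings lay above 0 on 22 of 28 occasions in run 3, against 50.5% of all readings there from features with 5 or more values. These readings were small, from -0.19 to 0.74, with a median of 0.097. In run 2, 11 of 19 BACH2 readings lay above 0, and in run 1, 8 of 16. The shares over all features with 5 or more values were 48.2% in run 2 and 53.3% in run 1. With 5 to 7 values they were 52.8% in run 3, 55.5% in run 2 and 41.9% in run 1. Averaged per gene over all features with a value, the mean over the 3 times was 0.071 ± 0.15 for BACH2 (SE, n = 8) and -0.076 ± 0.17 for BCL6 (SE, n = 8). It was 0.48 ± 0.28 for EBF1 (SE, n = 8), 0.063 ± 0.19 for PAX5 and 0.34 ± 0.25 for SPIB (SE, n = 7 each), and the adjusted p of the 5 genes ran from 0.87 to 0.95 (limma). The features averaged differed between arrays. The EBF1 average was between 0.52 and 2.38 on the arrays of run 2 and between -0.28 and 0.11 on the others. That of SPIB was 1.18 and 1.53 on run 2, on sample 2 at 8 h and sample 1 at 12 h. On its other arrays it was between -0.20 and 0.15.

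**Figure D2:**
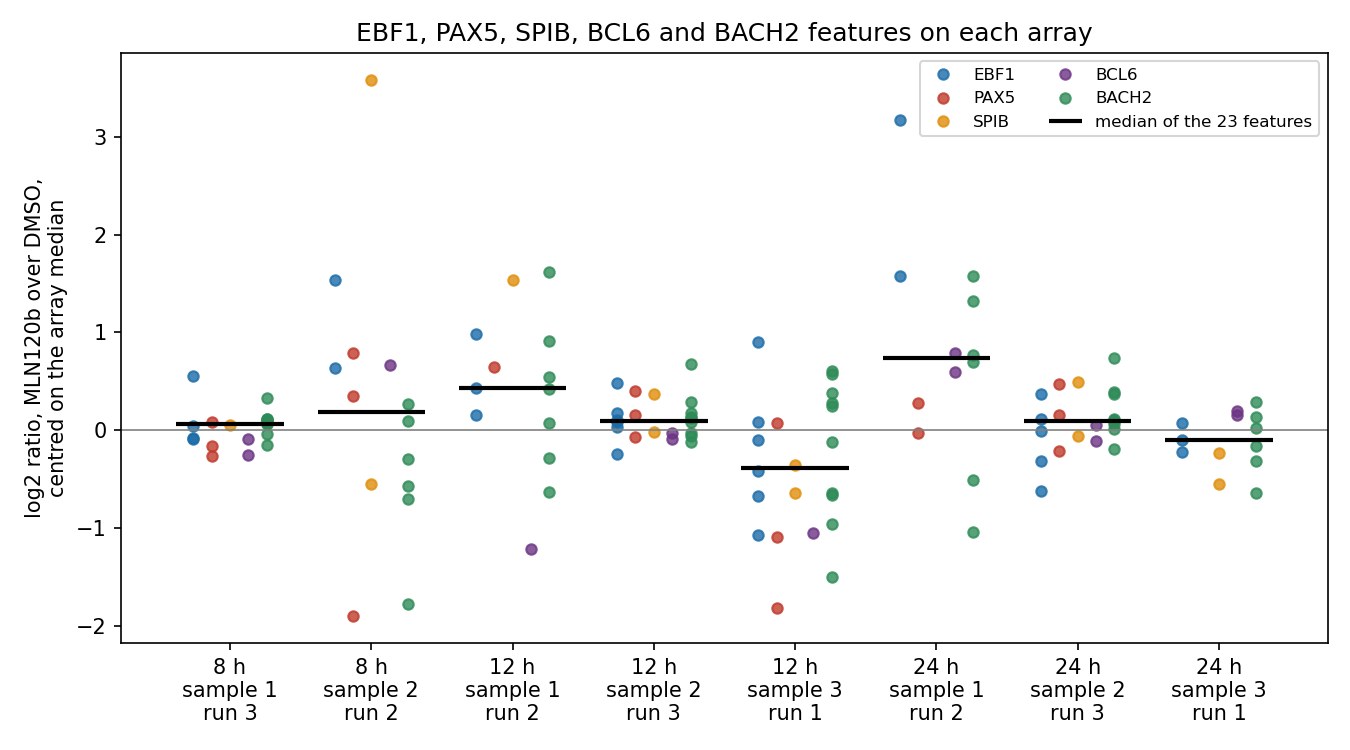
Log2 ratio of MLN120b over DMSO, centred on the array median, for each of 23 features on each array in order of time, with the gene by colour and a bar at the median. The medians run from -0.39 on sample 3 at 12 h to 0.74 on sample 1 at 24 h, and the widest spread is on the run 2 arrays.

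The medians of the 23 features differed between arrays of 1 time. The median of the features was 0.059 and 0.19 on samples 1 and 2 at 8 h. It was 0.43, 0.094 and -0.39 on samples 1, 2 and 3 at 12 h, and 0.74, 0.093 and -0.10 on samples 1, 2 and 3 at 24 h. It lay above 0 on all 6 arrays of runs 2 and 3 and below 0 on both arrays of run 1, and at 12 h and 24 h each time held values on both sides. Taken over readings, 27 of 39 lay above 0 in run 2, 40 of 63 in run 3 and 14 of 35 in run 1. Over all features with 5 to 7 values the shares in runs 2, 3 and 1 were 55.5%, 52.8% and 41.9%. With 5 or more values they were 48.2%, 50.5% and 53.3%. None of the 23 features kept 1 sign on all its arrays. The share over all features was not counted, so this is not shown to be particular to these genes. Of 137 readings 17 exceeded 1 in size, 12 of them in run 2 and 5 on sample 3 at 12 h.

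The medians of the 23 features had the same sign as those of all features with 5 to 7 values on 6 of the 8 arrays. On sample 1 the 23 features stood at 0.43 at 12 h and 0.74 at 24 h, and all features with 5 to 7 values at 0.35 and 0.20. On sample 3 the 23 features stood at -0.39 at 12 h and -0.10 at 24 h, and all features with 5 to 7 values at -0.096 and -0.059. Features with values on all 8 arrays had medians of -0.31 and -0.12 on sample 1 at 12 h and 24 h, and of 0.23 and 0.064 on sample 3 at 12 h and 24 h. Of the 23 features 21 miss at least 1 reading. The part of missing readings in the group's level was not tested.

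**Figure D3:**
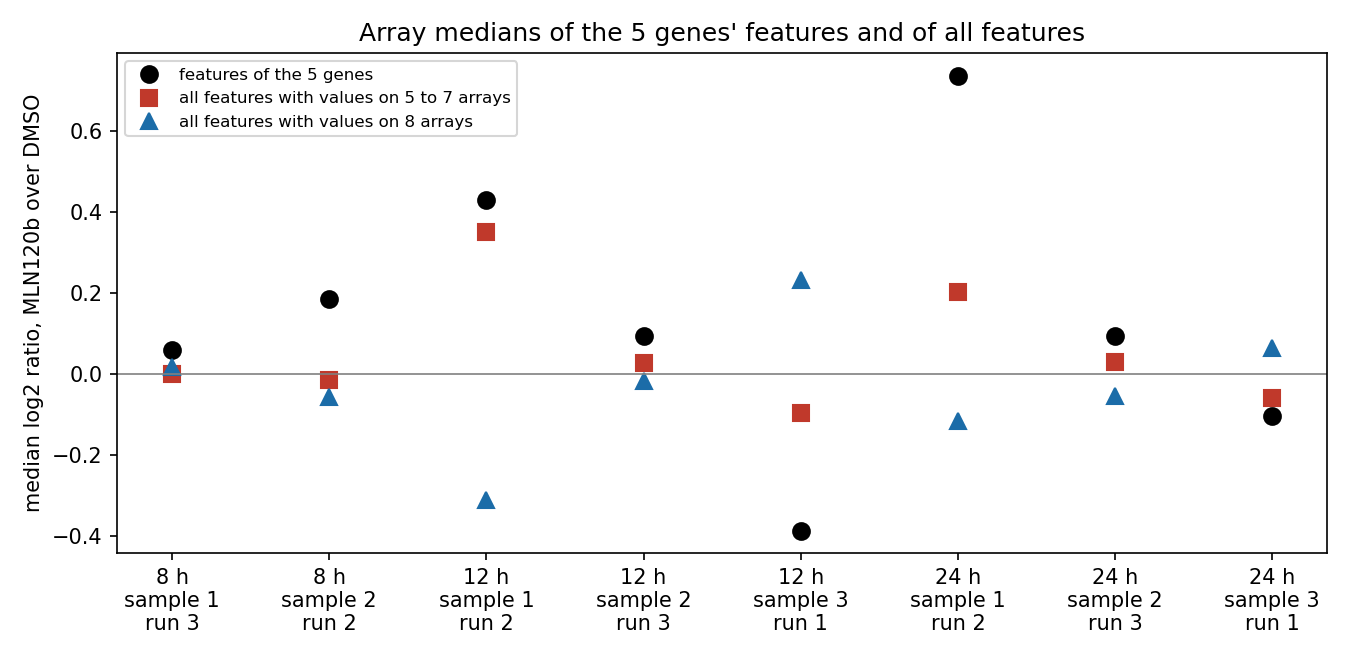
Median log2 ratio of MLN120b over DMSO on each array for the 23 features, for all features with values on 5 to 7 arrays and for all features with values on 8 arrays. On sample 1 at 12 h the 3 medians are 0.43, 0.35 and -0.31, and on sample 3 at 12 h they are -0.39, -0.096 and 0.23.

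Between times the 20 tested features showed no change that passed. Their medians were 0.086 at 8 h, -0.070 at 12 h and 0.18 at 24 h, and 12, 7 and 15 of 20 lay above 0. The shares above 0 over all features were 48.6%, 48.3% and 48.8%. Of the 20, 0 passed adjustment at each time, where the shares over all features were 0.0647% at 8 h, 0.0% at 12 h and 0.0% at 24 h. In the differences 0 passed too, where the shares were 0.0462% for 12 h minus 8 h, 0.0462% for 24 h minus 8 h and 0.0% for 24 h minus 12 h.

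At an unadjusted p under 0.05 stood 1 of 20 at 8 h, above 0, against 2.03% of all features (1.05% above 0). At 24 h 0 of 20 did, against 1.98% of all features (1.43% below 0). For 12 h minus 8 h it was 1 of 20 against 1.34%, for 24 h minus 8 h 1 of 20 against 1.16% and for 24 h minus 12 h 0 of 20 against 0.629%. Differences above 0 numbered 9 of 20 for 12 h minus 8 h (49.9% of all features), 12 of 20 for 24 h minus 8 h (49.3%) and 12 of 20 for 24 h minus 12 h (50.2%). The feature at 8 h and in the differences is 30237_1 of SPIB.

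The median 24 h minus 12 h difference was 0.24, and it turned to -0.0765 without sample 3 at 12 h. It was -0.30 with the database run as a block, a fit that 11 of the 20 allowed. Under quantile normalization it was -0.023, so neither direction held under all settings.

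**Figure D4:**
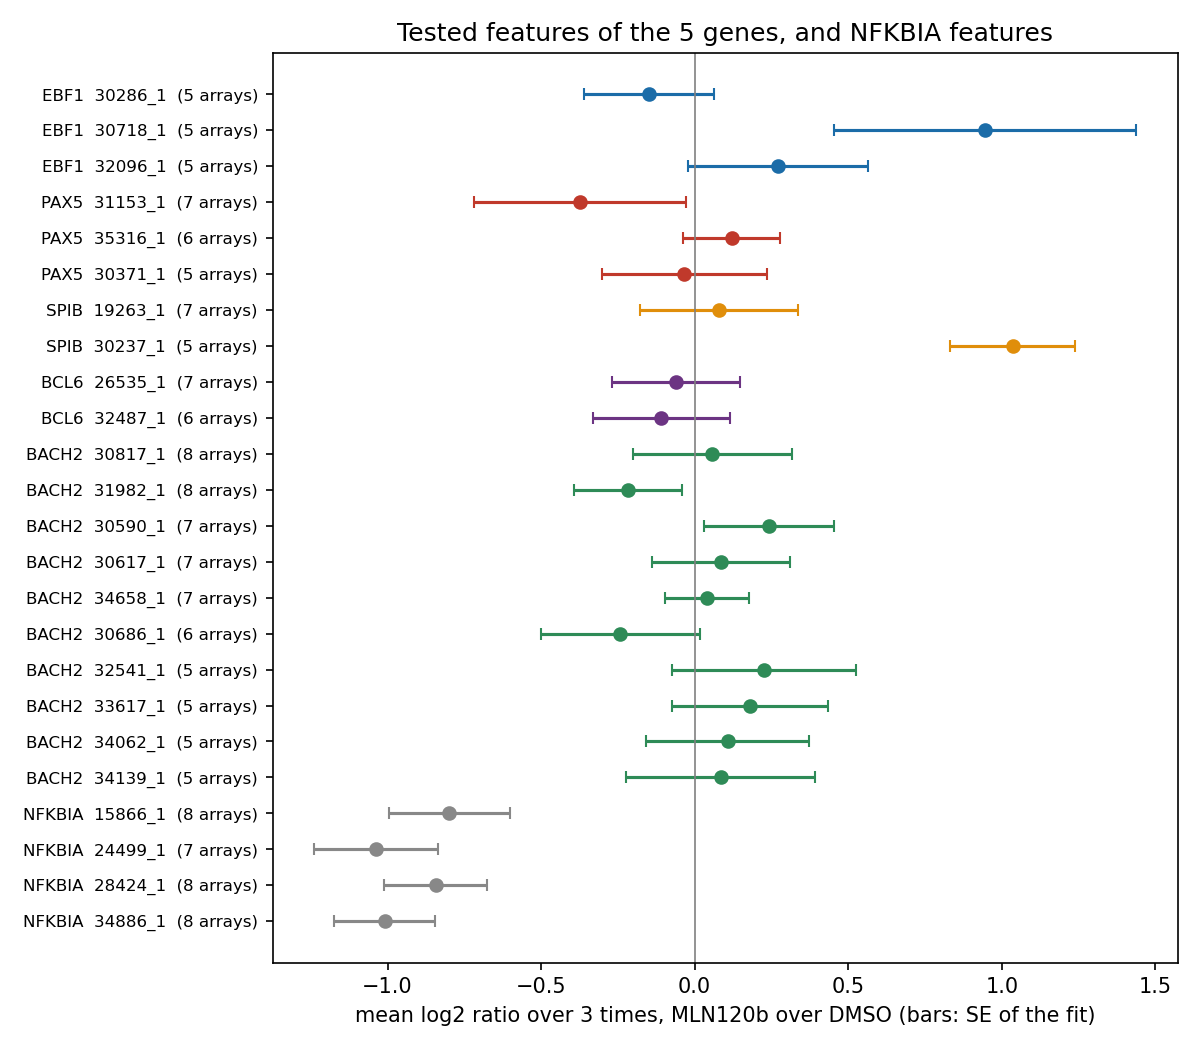
Mean log2 ratio of MLN120b over DMSO over the 3 times with its SE from the limma fit, for the 20 tested features grouped by gene and, below, 4 features of NFKBIA. The 20 features lie between -0.37 and 1.04 on both sides of 0, and the NFKBIA features between -1.04 and -0.80.

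Genes on either side of the 5 factors gave no shift that passed either, except for 1 feature. The lists were chosen with earlier results of these data known. Over all tested features 48.6% lay above 0, and 2.88% had an unadjusted p under 0.05 (limma), 1.29% above 0 and 1.59% below 0. Genes that PAX5, EBF1 and SPIB activate in B cells had 37 of 76 tested features above 0 and 39 below, with a median of -0.032 and 0 past the threshold (3 of 76 at an unadjusted p under 0.05, all below 0, against 2.88% over all features). LEF1, a Wnt pathway factor of B cell precursors, was at -0.71 ± 0.23 (SE, n = 8), CD79B, the B cell receptor chain Igβ, at 0.64 ± 0.28 (n = 5), and CIITA, the MHC class II activator, at -0.59 ± 0.50 (n = 5). LEF1 lay below 0 on 7 of 8 arrays, its lowest reading being -1.56, and its mean was -0.36 without run 2. CIITA rested on -3.12 on sample 1 at 12 h, and was at -0.044 without run 2.

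Other B cell transcription factors had 31 of 77 features above 0 and 46 below, with a median of -0.051 and 0 past the threshold (2 of 77 at an unadjusted p under 0.05, against 2.88% over all features). MEF2C, which acts in B cell receptor responses, was at -0.59 ± 0.26 (SE, n = 8), with its 3 lowest readings, -1.66, -1.52 and -1.04, in run 2, and it was at -0.037 without run 2. POU2F2, the octamer factor Oct-2, at 1.73 ± 1.23 (n = 7), and IKZF1, the factor Ikaros, at -1.39 ± 0.78 (n = 8), each rested on sample 2 at 8 h, at 11.7 and -8.68. Without that array they were at -0.29 and 0.078.

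The list of regulators and surface proteins of plasma cells names SDC1, TNFRSF17 and CD38, and also POU2AF1, which both B cell lists above name too. It had 18 of 25 features above 0 and 7 below, with a median of 0.099 and 0 past the threshold. At an unadjusted p under 0.05 (limma) stood 1 of 25, against 2.88% over all features. IRF4, which NF-κB induces, had 4 tested features with means of 0.59 ± 0.33 (SE, n = 8), 0.081 ± 0.14 (n = 8), -0.18 ± 0.23 (n = 5) and -0.13 ± 0.19 (n = 6). The highest of these rested on 2.63 and 1.82 on samples 1 at 12 h and 24 h, and was at 0.30 without the array at 12 h and at 0.12 without run 2. On sample 3 at 12 h all 4 IRF4 features lay below 0. ELL2, an elongation factor of antibody secretion, was at -1.11 ± 0.52 (n = 7), and ZBTB20, a BTB zinc finger factor, at 1.57 ± 1.14 (n = 6). Without run 2 they were at 0.089 and -0.086.

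Corepressors of BCL6 and partners of BACH2 had 4 of 17 features above 0 and 13 below, with a median of -0.045 and 0 past the threshold (0 at an unadjusted p under 0.05). HDAC5 was at -0.84 ± 0.51 (SE, n = 8) with -4.93 on sample 1 at 12 h and a mean of -0.066 without run 2, MAFG, a small Maf protein that pairs with BACH factors, at -0.29 ± 0.15 (n = 8), and HDAC7 at 0.29 ± 0.46 (n = 5). MAFG was at -0.11 without run 2 and HDAC7 at 0.025 without sample 1 at 12 h. Genes that BCL6, BACH2 or PAX5 repress had 41 of 77 features above 0 and 36 below, with a median of 0.018. In this list MYC was at 0.74 ± 0.17 (SE, n = 8; limma adjusted p = 0.96), above 0 on 8 of 8 arrays. CD69, an early activation marker, was at -0.97 ± 1.17 (n = 6), with -8.12 on sample 1 at 12 h and a mean of -0.082 without it.

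NOTCH1, which PAX5 represses in B cell precursors, was the only listed gene with a feature past the threshold, at 3.84 ± 0.18 (SE, n = 5; limma adjusted p = 0.022). It rested on 12.0 on sample 2 at 8 h, its only reading at that time, against -0.36 to -0.041 on the other 4 arrays. With quantile normalization its adjusted p was 0.38 and its mean 1.03. All 19 features of the NF-κB feedback genes lay below 0, 14 of them at an unadjusted p under 0.05 and 0 past the threshold, with a median of -0.84 over the 3 times and -0.42, -0.84 and -1.09 for 8 h, 12 h and 24 h.

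The readings most like each factor's were sought by Pearson's r over arrays, each array divided by its SD, for the features with 7 or 8 values. Over 3384 named features, 31153_1 of PAX5 was most like features of MS4A7 (r = 0.96) and AFF3 (r = 0.95) on 7 arrays. Feature 19263_1 of SPIB was most like RAB40AL (r = 0.98) and the same MS4A7 feature (r = 0.98), and 26535_1 of BCL6 most like ZNF83 (r = 0.98) and RAD23B (r = 0.97). For BACH2, 30817_1 was most like IFI16 (r = 0.96) and NR3C1 (r = 0.94) on 8 arrays, and 31982_1 most like XPO7 (r = 0.98) and CD59 (r = 0.96). Feature 30590_1 was most like PPP6C (r = 0.97) and GOLPH3L (r = 0.94), 30617_1 most like RPA1 (r = 1.00) and YWHAE (r = 0.98), and 34658_1 most like CREG1 (r = 0.97) and XRCC4 (r = 0.97). With values ranked within arrays, both named features stayed the 2 most like for 2 of the 8 features, 26535_1 of BCL6 and 30617_1 of BACH2, and 1 of the 2 did for the other 6. By rank CD59 stood at place 45 for 31982_1, XRCC4 at 11 for 34658_1 and AFF3 at 10 for 31153_1. Between 9 and 59 features exceeded an r of 0.9 with each, and no BACH2 feature is among the 2 named for another. Dividing by the SD takes out an array's spread but not what else the arrays of a run share. These are descriptions of few arrays.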

How the data were processed

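The authors deposited 1 log2 ratio per feature and array for 8 2-colour arrays. The sources used here do not give their background correction, spot filter, normalization, centring or ratio direction. Base 2 was read from the values, whose largest size, 12.4, exceeds the 11.1 that a natural log of 16-bit intensities allows; it is an assumption for the other arrays. No array had its dyes exchanged, so dye bias and treatment cannot be told apart. No spot signal is at hand, and precision is limited by the number of arrays.

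The median of each array was subtracted from its values. The platform annotation gave 10169 features 1 gene, 4 several and 5073 none. Symbols were updated for 10128 features by Entrez identifier and 17 by accession through RefSeq names of GRCh38.p14, and 24 were kept as listed. No coordinates of features are known.

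Features stayed on their own. Those with values on at least 5 arrays and at least 1 at each time, 10817 in all, were fitted with limma 3.58.1 in R 4.3.3 (a mean for each time, lmFit and eBayes, all 8 arrays). As each array carries its own DMSO control, ratios were tested against 0, 2-sided, without the spread of DMSO samples among themselves, with Benjamini-Hochberg adjustment over all features and a threshold of 0.05. The fit was tested on simulated data. Tables were made with pandas 2.3.3 and plots with matplotlib 3.10.9, in Python 3.11.15.

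The genes, lists and comparisons were chosen with earlier results of these data known. Named were all features of the 5 genes, the 3 genes of each list with the largest mean change, the 2 features most like each factor's feature on 7 or more arrays, and NFKBIA, TNFAIP3 and NFKB2. Alternatives were other normalizations, filters, blocks and weights, features averaged by gene, arrays left out and, added after seeing the data, 1 mean over all arrays.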

Additional observations from a re-analysis of the deposited data

How the results depend on the processing

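The adjusted calls for the 5 genes stayed at 0 over the 3 times, at 12 h, at 24 h and in the 24 h minus 12 h difference under every alternative run. At 8 h and in both differences from 8 h they ranged from 0 to 1 when arrays were left out, the 1 coming without sample 1 at 8 h. Over all features the count over the 3 times was 2 in the fit reported. It was 0 with quantile normalization, the replicate block, features on all 8 arrays, at least 2 values at each time, features averaged by gene, 1 mean over all arrays and without run 2. It was 1 with scale normalization, 4 with robust variances, 6 with the run as a fixed block, 7 with array weights (whose fit stopped before it converged) and 0 to 81 with an array left out.

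Sample numbers do not pair all samples: over 4413 complete features the deviations of same-numbered samples correlated at 0.19 to 0.31 between 12 h and 24 h, but at -0.35 to -0.17 between 8 h and the later times. Arrays of the same database run correlated at 0.17 to 0.35 in all 7 pairs, and the fit reported does not hold the run as a term. With 2 arrays at 8 h, their deviations are mirror images. Same-run pairs with an 8 h array therefore repeat the negative values above with the sign turned. Those of 12 h with 24 h are the same-numbered pairs, so the 7 pairs add no separate values. With the replicate block, which 11 of the 20 features allowed, the medians of the 5 genes were -0.34 at 8 h, 0.17 for 12 h minus 8 h, 0.63 for 24 h minus 8 h and -0.10 for 24 h minus 12 h. With the run as a fixed block 24 h minus 8 h was 0.41 and 24 h minus 12 h was -0.30. With at least 2 values at each time, 12 h minus 8 h was 0.26 and 24 h minus 12 h was -0.20. With an array left out, 24 h minus 12 h ran from -0.0765 to 0.38.

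Single features turned sign as follows. As deposited, BACH2 30817_1, 30617_1 and 34658_1 had means of -0.071, -0.027 and -0.12. BACH2 30817_1 was at -0.12 with the replicate block and with the run as a fixed block, and at -0.0098 with the run as a random block, where 34139_1 was at -0.034. With array weights PAX5 30371_1 was at 0.080 and BCL6 26535_1 at 0.062. Without run 2, PAX5 35316_1 was at -0.0048, BACH2 30817_1 at -0.16, 31982_1 at 0.082, 30686_1 at 0.045, 32541_1 at -0.022 and 34062_1 at -0.0935. Without run 2, POU2F2 was at -0.44, IKZF1 at 0.077, ZBTB20 at -0.086 and ELL2 at 0.089. POU2F2 was at -0.089 with quantile normalization and ZBTB20 at -0.086 with the replicate block. With an array left out, PAX5 30371_1 ran from -0.20 to 0.14, SPIB 19263_1 from -0.096 to 0.25, BCL6 26535_1 from -0.26 to 0.14 and 32487_1 from -0.27 to 0.050. BACH2 30817_1 ran from -0.056 to 0.26, 30617_1 from -0.0199 to 0.18, 34658_1 from -0.018 to 0.099, 30686_1 from -0.51 to 0.029, 32541_1 from -0.022 to 0.47, 34062_1 from -0.0935 to 0.31 and 34139_1 from -0.19 to 0.36. POU2F2 ran from -0.29 to 3.75, IKZF1 from -2.85 to 0.078 and ZBTB20 from -0.086 to 3.22. The cause was not tested. Deposited without scanner signal, the ratios do not show which readings lie near background.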
